A study of Mus musculus with 6 samples.

Results

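The Bcl2 family decides whether a cell keeps its mitochondria intact or enters apoptosis. 10 of its genes were followed here, chosen by symbol from the 55536 named genes of the count table: the pro-survival genes Mcl1, Bcl2l1, Bcl2, Bcl2a1b and Bcl2a1d, the pore formers Bax and Bak1, and the BH3-only genes Bbc3, Bcl2l11 and Bmf. All 10 had counts in every library and passed the filter on low values that left 14719 genes. RNA sequencing of total RNA was done on cells of C57BL/6 mice aged 8 weeks, with 1 library for each of 6 groups. These were macrophages grown from marrow for 7 days with GM-CSF (GM-BMDM), the same cells after 3 h of interleukin-6 (IL6), macrophages grown with M-CSF (M-BMDM), these after 3 h and after 24 h of IL6, and uncultured bone marrow cells (BM). The untreated macrophages are labelled as controls without a time, and no dose of IL6 is given in the labels. Nothing in the labels says whether libraries came from separate animals or cultures, so the spread behind any p-value may be technical.

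Pro-survival Bcl2 proteins bind and hold back Bax and Bak1, which otherwise form pores in the outer mitochondrial membrane and release cytochrome c. BH3-only proteins are the triggers: they occupy the groove of the pro-survival proteins or act on Bax and Bak1 directly, and each answers to its own kind of stress. Macrophages depend on M-CSF or GM-CSF for survival, and part of that signal reaches the Bcl2 family through its transcription.

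Levels are given in CPM, counts per 1000000 of a library size scaled by the TMM method. Before scaling, the libraries held from 18511800 (M-BMDM) to 24134400 (GM-BMDM) counts in named genes. A ratio of a pair of libraries is given with its exact 95% counting interval, which covers counting error only, and a gene is called higher or lower when the ratio is at least 2-fold, the interval excludes 1 and the higher library has at least 5 CPM. All 7 macrophage markers examined, Adgre1 and Csf1r among them, reached 5 CPM in every library. Their summed level was 25168 to 47262 CPM in the 5 cultures and 5500 CPM in BM. Lyz2 made up most of that sum, with 44295 CPM in GM-BMDM and 5175 CPM in BM. In M-BMDM, 6 of the 7 were called higher than in BM (20.1% of all genes), but Mertk had 7.68 against 11.4 CPM. Between GM-BMDM and M-BMDM, 1 was called higher in GM-BMDM and 4 lower, beside 10.8% and 8.64% of all genes. Adgre1 had 257 against 896 CPM and Csf1r 1068 against 3234 CPM. The 9 neutrophil markers summed to 37350 CPM in BM and to 19.9 CPM or less in the cultures, where Retnlg had no count. The 6 erythroid markers summed to 81266 CPM in BM and to 10.3 CPM or less in the cultures. In bulk RNA, fewer cells of a type and less RNA per cell cannot be told apart.

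The mouse has several near-identical copies of Bcl2a1, which encodes A1, a pro-survival protein of blood cells and a known NF-kappaB target. Bcl2a1b (chromosome 9, 89199209 to 89207827, plus strand, GRCm38) and Bcl2a1d (chromosome 9, 88723285 to 88731914, minus strand) are 2 of them, and Bcl2a1a (chromosome 9, 88956900 to 88962419, plus strand) lies between them. Their coding sequences of 516 bases differ at 6 positions between Bcl2a1b and Bcl2a1d (98.8% identity), at 7 between Bcl2a1a and Bcl2a1d and at 11 between Bcl2a1a and Bcl2a1b. The first 90 coding bases, from the GENCODE M21 transcripts, are printed because they hold 6 of the 12 positions at which any of the 3 copies differ, and these positions are in capitals.
Bcl2a1a, chr9:88957051-88957140, plus strand: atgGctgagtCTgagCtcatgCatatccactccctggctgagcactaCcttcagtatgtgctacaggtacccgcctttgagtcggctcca
Bcl2a1b, chr9:89199360-89199449, plus strand: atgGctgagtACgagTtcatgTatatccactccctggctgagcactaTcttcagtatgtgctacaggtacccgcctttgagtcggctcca
Bcl2a1d, chr9:88731630-88731719, minus strand: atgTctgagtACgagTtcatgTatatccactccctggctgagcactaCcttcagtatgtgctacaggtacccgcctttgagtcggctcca
A read placed in the long identical runs cannot be assigned to a copy. Windows of 100 bases along each transcript were searched for in the transcripts of the other copies, Bcl2a1c included. Of these windows, 31.1% in Bcl2a1b, 54.7% in Bcl2a1d and 43.5% in Bcl2a1a also occurred in another copy. With windows of 150 bases the shares were 14.2% for Bcl2a1b, 30.3% for Bcl2a1d and 28.2% for Bcl2a1a. The level of a single copy is therefore uncertain to that extent. The sum over copies does not depend on how the reads counted for them were divided among the copies. It would depend on any shared reads that were dropped, and the sources used here do not say whether any were.

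The promoters of Bcl2a1b and Bcl2a1d are close to identical as well. Over the aligned stretch of 256 columns upstream of and across the annotated starts (RefSeq, GRCm38.p6), 247 positions were identical (96.5%), 3 were mismatches and 6 were gap columns. Both are printed because the members' levels differ while these sequences hardly do, and capitals mark the bases that differ or are missing in the other copy.
Bcl2a1b promoter, chr9:89199023-89199278, plus strand: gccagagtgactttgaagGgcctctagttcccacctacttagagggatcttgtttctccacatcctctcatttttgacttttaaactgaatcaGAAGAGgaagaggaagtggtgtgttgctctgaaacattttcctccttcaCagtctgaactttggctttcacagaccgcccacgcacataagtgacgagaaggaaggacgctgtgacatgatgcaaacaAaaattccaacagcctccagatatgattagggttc
Bcl2a1d promoter, chr9:88731801-88732050, minus strand: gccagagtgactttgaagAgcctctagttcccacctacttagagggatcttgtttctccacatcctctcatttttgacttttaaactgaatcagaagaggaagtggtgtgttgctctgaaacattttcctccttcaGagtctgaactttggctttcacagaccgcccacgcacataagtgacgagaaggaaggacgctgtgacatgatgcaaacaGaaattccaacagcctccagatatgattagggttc

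Bcl2a1 was the part of the family that differed most between the groups. Bcl2a1b stood at 275 CPM in GM-BMDM and 249 CPM after 3 h of IL6, at 134 CPM in M-BMDM, 128 CPM after 3 h and 100 CPM after 24 h, and at 2.80 CPM in BM. Both GM-CSF libraries lay above all 3 M-CSF libraries, and all 5 cultures lay far above marrow. Bcl2a1d stood at 133 CPM in GM-BMDM and 138 CPM after 3 h of IL6, at 14.9 CPM in M-BMDM, 16.2 CPM after 3 h and 3.61 CPM after 24 h, and at 1.36 CPM in BM. Here the gap between the macrophage types was wider than for Bcl2a1b, and the 24 h M-CSF library was the lowest of the cultures. Bcl2a1a, not 1 of the 10 genes but needed to read them, had 109 and 107 CPM in the GM-CSF libraries, 6.07, 6.98 and 1.33 CPM in the M-CSF libraries in order of time, and 0.946 CPM in BM. Bcl2a1c, the remaining copy, had no count in any library.

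Summed over the copies, Bcl2a1 reached 516 CPM in GM-BMDM against 5.10 CPM in BM (101-fold, 95% interval 84.8 to 122), and 155 CPM in M-BMDM against the same marrow library (30.4-fold, 25.4 to 36.6). GM-BMDM stood 3.33-fold above M-BMDM (3.20 to 3.48). The division of the summed counts among copies differed as well: Bcl2a1b held 53.2% of them in GM-BMDM (95% Clopper-Pearson interval 52.3% to 54.2%) and 50.4% (49.4% to 51.5%) after 3 h of IL6. It held 86.5% (85.2% to 87.7%) in M-BMDM, 84.6% (83.4% to 85.8%) after 3 h and 95.3% (94.4% to 96.1%) after 24 h. In BM the share of Bcl2a1b was 54.8% (45.7% to 63.8%), which rests on 124 counts. The intervals of these shares cover counting error only. They leave out the error of dividing shared reads among the near-identical copies, which was not measured.

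Mcl1 (chromosome 3, 95658788 to 95663176, plus strand) encodes a short-lived pro-survival protein that hematopoietic stem cells and neutrophils need. It had 530 CPM in GM-BMDM and 555 CPM after 3 h of IL6, 790 CPM in M-BMDM, 776 CPM after 3 h and 502 CPM after 24 h, and 387 CPM in BM. The untreated and the 3 h M-CSF libraries were the high ones, and the 24 h library lay just below the GM-CSF libraries. Bcl2l1 (chromosome 2, 152780668 to 152831728, minus strand), which encodes Bcl-xL and a short pro-death splice form that gene counts do not separate, had 96.5 and 102 CPM in GM-BMDM without and after 3 h of IL6. In the M-CSF libraries it had 150 CPM untreated, 168 CPM after 3 h and 108 CPM after 24 h, and in BM 123 CPM. Bcl2 itself (chromosome 1, 106538178 to 106714274, minus strand), the founding pro-survival member, lay between 13.2 and 17.2 CPM in the 5 cultures and at 22.0 CPM in BM. Over the 6 libraries Bcl2 spanned 0.73 log2 units and Bcl2l1 0.80. Among genes at this limit of level, 21.1% had a smaller range than Bcl2 and 25.4% a smaller range than Bcl2l1, against 95.1% for Bcl2a1b and for Bcl2a1d.

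Bax differed little among the cultures, and Bak1 spanned 103 to 155 CPM. Bax (chromosome 7, 45461697 to 45466898, minus strand) had 108 and 107 CPM in GM-BMDM without and after 3 h of IL6, and 106, 114 and 113 CPM in the untreated M-BMDM and those given IL6 for 3 h and 24 h. Marrow had 33.6 CPM of Bax, below every culture. Bak1 (chromosome 17, 27019810 to 27029009, minus strand) had 118 and 125 CPM in the GM-CSF libraries, 142, 155 and 103 CPM in the M-CSF libraries in order of time, and 74.4 CPM in BM.

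Of the triggers Bbc3, Bcl2l11 and Bmf, Bcl2l11 (chromosome 2, 128126038 to 128162547, plus strand) had the highest level in every culture. This held by CPM and per kilobase of exon, but not in BM. Other BH3-only genes, such as Bid, were not part of this ranking. Bcl2l11 encodes BIM, which kills blood cells deprived of growth factor and is held down by survival signalling through AKT and ERK. It had 66.1 and 66.0 CPM in the GM-CSF libraries without and after 3 h of IL6, 88.0, 75.4 and 90.6 CPM in the M-CSF libraries in order of time, and 26.6 CPM in BM. Bmf (chromosome 2, 118528757 to 118549687, minus strand) encodes a BH3-only protein that is tethered to the actin cytoskeleton through dynein light chain. It had 23.9 CPM in GM-BMDM and 32.8 CPM after 3 h of IL6, 4.73 CPM in M-BMDM, 7.16 CPM after 3 h and 23.0 CPM after 24 h, and 28.6 CPM in BM. The untreated and the 3 h M-CSF libraries were thus the low ones for Bmf and the other 4 were alike to within a factor below 1.5. Bbc3 (chromosome 7, 16308393 to 16318205, plus strand) encodes PUMA, a target of p53 that binds all pro-survival members. It had 11.2 and 11.4 CPM in the GM-CSF libraries, 5.37 CPM in M-BMDM, 5.89 CPM after 3 h and 16.8 CPM after 24 h, and 8.23 CPM in BM.

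**Figure D1:**
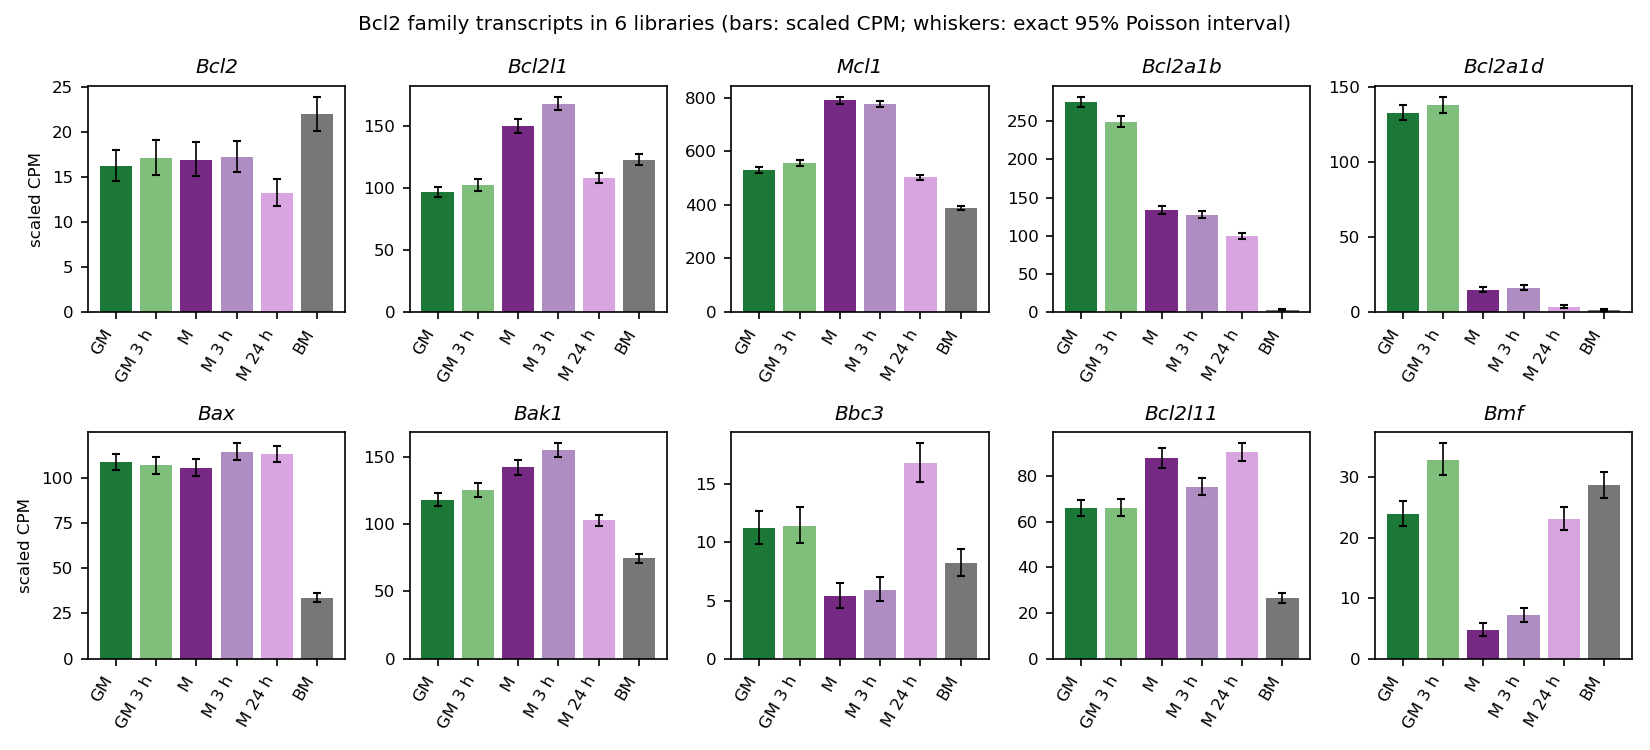
Scaled CPM of the 10 Bcl2 family genes (1 panel each, vertical axes start at 0 and differ) in GM-BMDM, GM-BMDM after 3 h of IL6, M-BMDM, M-BMDM after 3 h and 24 h of IL6, and BM; bars are the single library of each group and whiskers its exact 95% Poisson interval. Bcl2a1d stands at 133 and 138 CPM in the GM-CSF libraries and at 16.2 CPM or less elsewhere, while Bax differs between the cultures by little and is lowest in BM at 33.6 CPM.

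Per length of exon, so that different genes can be compared, the order of the pro-survival transcripts differed between the macrophage types. In GM-BMDM the 5 pro-survival genes were made up of 50.4% Bcl2a1b, 23.2% Mcl1, 23.0% Bcl2a1d, 3.15% Bcl2l1 and 0.265% Bcl2, as shares of the sum of CPM per kilobase. Bcl2a1a is not in this sum, although it had 109 CPM in GM-BMDM against 6.07 CPM in M-BMDM, so all shares describe these 5 genes only. After 3 h of IL6 these shares were 46.8% Bcl2a1b, 24.9% Mcl1, 24.5% Bcl2a1d, 3.43% Bcl2l1 and 0.287% Bcl2. In M-BMDM, Mcl1 led with 51.7%, and Bcl2a1b followed with 36.7%, Bcl2l1 with 7.32%, Bcl2a1d with 3.86% and Bcl2 with 0.413%. Mcl1 also led in the IL6-treated M-BMDM, with 51.5% at 3 h and 49.2% at 24 h, when Bcl2a1b had 41.0% and Bcl2a1d 1.40%. In BM, Mcl1 made up 76.8% and Bcl2l1 18.2%, with 2.33% Bcl2a1b, 1.63% Bcl2 and 1.07% Bcl2a1d. The place of Bcl2a1b above Mcl1 in GM-BMDM depends on the length correction: without it Mcl1 held 50.5% and Bcl2a1b 26.2%, whereas with the longest transcript as length Bcl2a1b held 49.1% and Mcl1 22.6%.

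**Figure D2:**
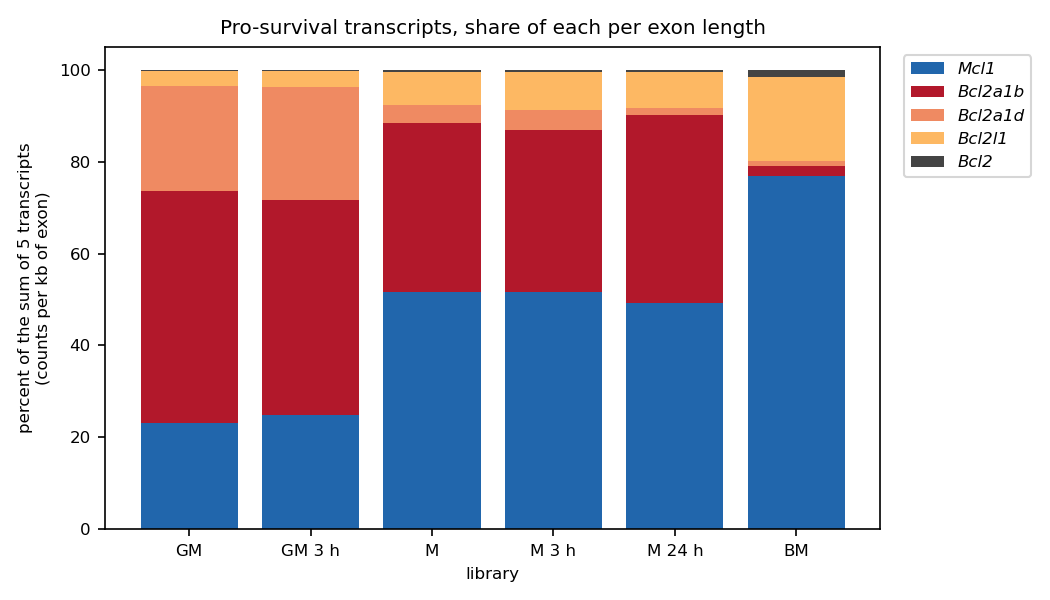
Each pro-survival transcript's share of the sum of the 5 (vertical axis, percent, from CPM per kilobase of exon) in the 6 libraries. Mcl1 makes up 23.2% in GM-BMDM, against 51.7% in M-BMDM and 76.8% in BM, and Bcl2a1b and Bcl2a1d together make up most of the rest in GM-BMDM. Bcl2a1a is not in the sum.

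The cultures were first set against uncultured marrow. In GM-BMDM, 4 of the 10 genes were called higher and 0 lower, where 19.8% of all genes at this level were called higher and 22.3% lower (42.1% in either direction). In M-BMDM, 5 were called higher and 1 lower, where 20.1% of all genes were called higher and 23% lower (43.1% in either direction). Both comparisons use the same marrow library and are therefore not independent. Bcl2a1b was 98.3-fold higher in GM-BMDM (95% interval 77.4 to 127) and 47.9-fold higher in M-BMDM (37.6 to 61.8). Bcl2a1d had a log2 ratio of 6.61 in GM-BMDM (6.12 to 7.15) and of 3.45 in M-BMDM (2.93 to 4.02). Bax was 3.23-fold higher in GM-BMDM (2.98 to 3.50) and 3.14-fold higher in M-BMDM (2.89 to 3.41). Bcl2l11 was 2.49-fold higher in GM-BMDM (2.27 to 2.73) and 3.31-fold higher in M-BMDM (3.02 to 3.63). A pore former and a trigger were thus higher in both cultures together with the A1 copies, although with total counts as scaling Bcl2l11 fell short of 2-fold in GM-BMDM (log2 ratio 0.99).

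Mcl1 was called in M-BMDM alone, at 2.04-fold (1.99 to 2.10), and had a ratio of 1.37 (1.33 to 1.41) in GM-BMDM. Its call in M-BMDM was lost when libraries were scaled by total counts, with a log2 ratio of 0.86. Bmf was the gene called lower, with a log2 ratio of -2.60 in M-BMDM (-2.93 to -2.28), against -0.26 in GM-BMDM (-0.42 to -0.09). Bak1 had log2 ratios of 0.67 in GM-BMDM and 0.93 in M-BMDM, Bcl2l1 of -0.35 and 0.29, Bcl2 of -0.44 and -0.38, and Bbc3 of 0.45 and -0.62, each short of 2-fold. The 10 genes had a median log2 ratio of 0.56 in GM-BMDM and 0.98 in M-BMDM, beside -0.10 and -0.07 for all 14719 genes.

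**Figure D3:**
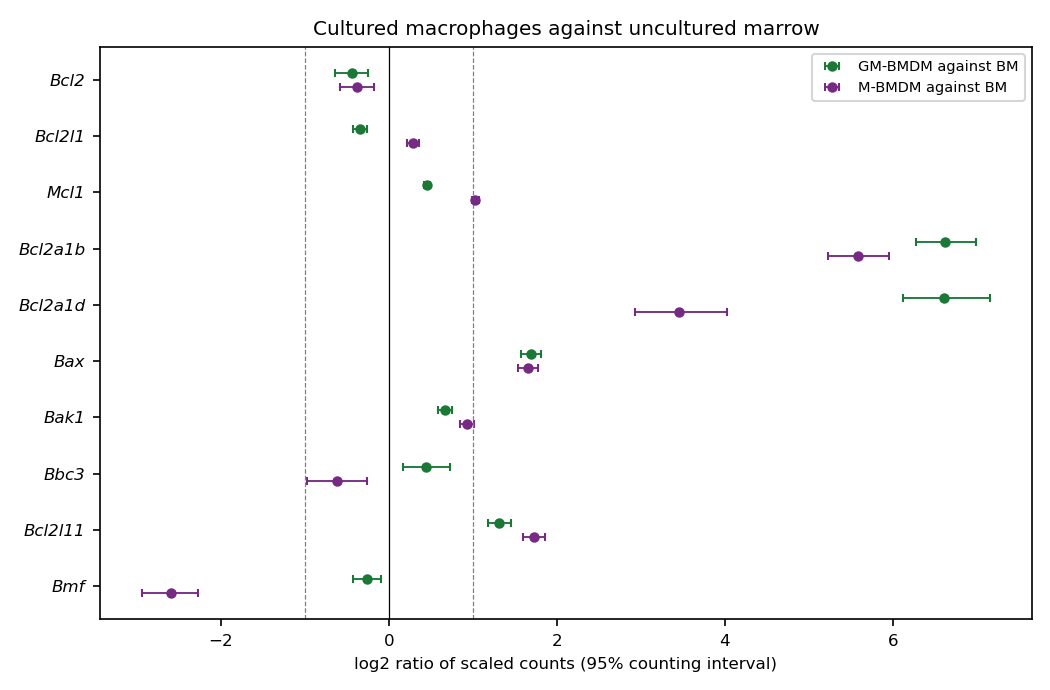
Log2 ratio of scaled counts of GM-BMDM over BM and of M-BMDM over BM (horizontal axis) for the 10 genes; points are ratios of single libraries, bars exact 95% counting intervals, and dashed lines mark 2-fold. Bcl2a1b and Bcl2a1d lie far to the right in both, and Bmf lies left of the line in M-BMDM at -2.60.

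The comparison of the growth factors could be made on pairs of libraries, untreated and after 3 h of IL6. Among untreated cells, Bcl2a1b, Bcl2a1d, Bbc3 and Bmf were called higher in GM-BMDM than in M-BMDM and 0 genes lower, where 10.8% of all genes were called higher and 8.64% lower (19.4% in either direction). After 3 h of IL6, Bcl2a1d and Bmf were called higher and 0 genes lower, beside 10.6% of all genes higher and 8.06% lower (18.7% in either direction). Bcl2a1d was 8.91-fold higher in GM-BMDM (7.88 to 10.1) and 8.51-fold higher after 3 h (7.61 to 9.53). Bmf was 5.06-fold higher (4.03 to 6.42) and, after 3 h, 4.58-fold higher (3.84 to 5.50). Bcl2a1b and Bbc3 sat at the threshold: Bcl2a1b had ratios of 2.05 and 1.95, and Bbc3 had ratios of 2.09 and 1.94. With total counts as scaling, neither was called in either pair (log2 ratios of 0.86 to 0.88 for Bcl2a1b and 0.85 to 0.90 for Bbc3), and with upper-quartile factors both were called in both pairs.

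One fit of all 6 libraries with edgeR's quasi-likelihood method, with terms for cell type and for each IL6 time, tested the same contrast over both pairs. In this test 4 of the 10 genes rose in GM-CSF macrophages and 4 fell, where 28.9% of all 14719 genes rose and 27.4% fell, so that 56.3% of all genes changed. Bcl2a1d rose with a log2 fold change of 3.12 ± 0.10 (SE, edgeR adjusted p = 1.71e-112), Bmf with 2.26 ± 0.13 (adjusted p = 9.06e-53), Bbc3 with 1.01 ± 0.19 (adjusted p = 5.79e-07) and Bcl2a1b with 1.00 ± 0.08 (adjusted p = 1.14e-28). Each was higher in 2 of 2 pairs. Bcl2l1 fell by 0.67 on the log2 scale (SE 0.08, edgeR adjusted p = 3.99e-14), Mcl1 by 0.53 (SE 0.09, adjusted p = 5.18e-09), Bcl2l11 by 0.30 (SE 0.09, adjusted p = 0.00216) and Bak1 by 0.29 (SE 0.08, adjusted p = 0.00160). Each was lower in 2 of 2 pairs. Bcl2 had a log2 fold change of -0.04 ± 0.12 (SE) and Bax of -0.03 ± 0.09, and neither passed.

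GM-CSF macrophages thus had more Bcl2a1 and less Mcl1 and Bcl2l1 transcript among the pro-survival genes than M-CSF macrophages untreated or after 3 h. Among the triggers they had more Bmf and Bbc3 and less Bcl2l11. The 24 h M-CSF library, which has its own term in the fit, was close to GM-BMDM for Mcl1 (502 against 530 CPM). It was also close for Bcl2l1 (108 against 96.5 CPM) and Bmf (23.0 against 23.9 CPM), and higher for Bbc3 (16.8 against 11.2 CPM). Summed Bcl2a1 (105 against 516 CPM) and Bcl2l11 (90.6 against 66.1 CPM) still differed. The fit leaves 1 residual degree of freedom, which comes from how far GM-BMDM and M-BMDM differ in their response to 3 h of IL6, and its spread was a biological coefficient of variation of 6.45%. With a single IL6 term for both times in its place the coefficient was 36.7%, 0 of the 10 genes passed (650 of all genes did), and the adjusted p of Bmf was 0.248. DESeq2's Wald test did not call Bak1 (adjusted p = 0.102) or Bcl2l11 (adjusted p = 0.184). The 6 dendritic cell markers summed to 1035 and 1029 CPM in the GM-CSF libraries without and after 3 h of IL6, against 27.2 and 26.1 CPM in the M-CSF libraries. Itgax made up most of this, with 994 CPM in GM-BMDM against 26.1 CPM in M-BMDM, while Flt3 was at 0.322 CPM in both and none of the 6 was at 0. Their part in the difference of the Bcl2 family genes was not tested.

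**Figure D4:**
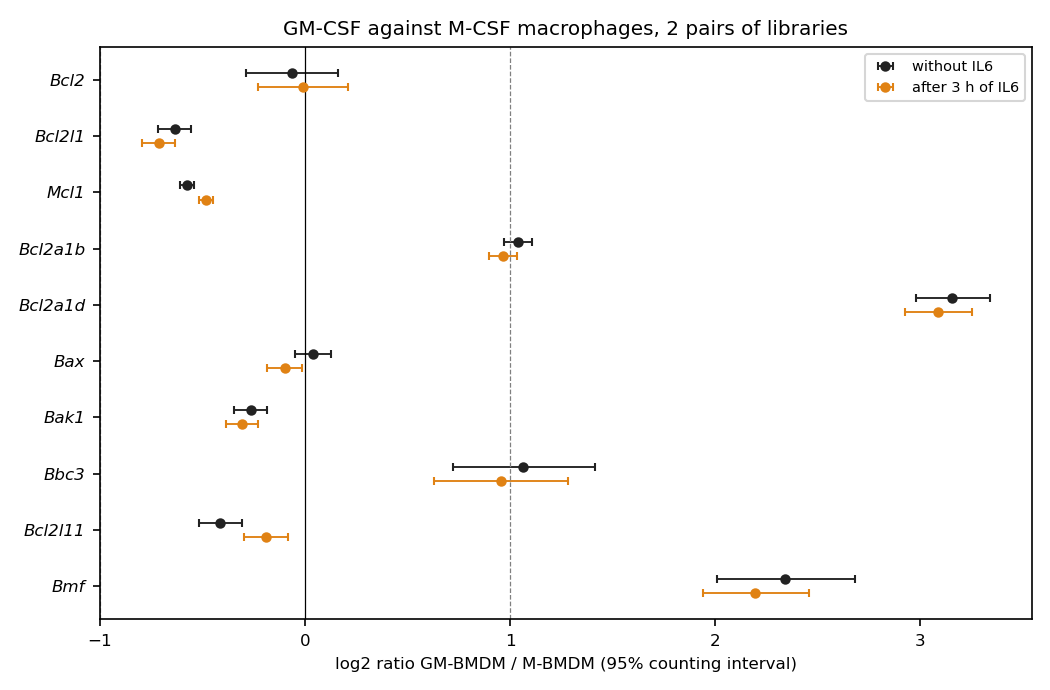
Log2 ratio of GM-BMDM over M-BMDM (horizontal axis) for the 10 genes, without IL6 and after 3 h of IL6; points are ratios of single libraries, bars exact 95% counting intervals, and the dashed line marks 2-fold. The pairs give nearly the same ratio for Bcl2a1d (3.16 and 3.09) and Bmf (2.34 and 2.20), and Mcl1 and Bcl2l1 lie left of 0 in both.

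Few genes of any kind differed after 3 h of IL6, and the members differed little as well. In GM-BMDM, 0 of the 10 genes were called at 2-fold, where 0.0585% of all genes were called higher and 0.107% lower (0.166% in either direction). In M-BMDM 0 were called as well, where 0.0906% of all genes were called higher and 0.272% lower (0.362% in either direction). In the fit over both macrophage types, Bmf rose with a log2 fold change of 0.50 ± 0.12 (SE, edgeR adjusted p = 0.0131), and it was higher in 2 of 2 pairs. Of all 14719 genes, 0.177% rose and 0.788% fell in that test (0.965% in either direction). Bmf had 32.8 CPM after 3 h against 23.9 CPM in untreated GM-BMDM (1.37-fold, 95% interval 1.22 to 1.55), and 7.16 against 4.73 CPM in M-BMDM (1.52-fold, 1.16 to 1.99). The call rests on the choice of tool: the adjusted p of Bmf was 0.158 with limma-voom, 1.00 with DESeq2's Wald test, 0.05001 with total counts in edgeR, and 1.00 with 1 IL6 term for both times. The remaining 9 genes had log2 fold changes between -0.11 for Bcl2l11 and 0.13 for Bcl2l1 and did not pass, with edgeR adjusted p-values of 0.781 or more, and Bmf was also the only 1 of the 10 with an unadjusted p under 0.05. Socs3, a feedback inhibitor that STAT3 induces downstream of IL6, had 141 CPM after 3 h against 142 CPM in untreated GM-BMDM and 99.3 against 102 CPM in M-BMDM.

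After 24 h of IL6, M-BMDM had more of the triggers Bmf and Bbc3 and less Bcl2a1d. Bmf had 23.0 CPM against 4.73 CPM in untreated M-BMDM (4.88-fold higher, 95% interval 3.89 to 6.18), and Bbc3 had 16.8 against 5.37 CPM (3.13-fold higher, 2.51 to 3.94). Bcl2a1d had 3.61 against 14.9 CPM, a log2 ratio of -2.04 (-2.41 to -1.69). With these, 2 of the 10 genes were called higher and 1 lower, where 11.5% of all genes were called higher and 8.93% lower (20.4% in either direction). Against the library after 3 h the same 3 genes were called, with log2 ratios of 1.69 for Bmf, 1.51 for Bbc3 and -2.16 for Bcl2a1d, beside 11.7% of all genes higher and 8.59% lower (20.3% in either direction). Those 2 comparisons share the 24 h library.

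The pro-survival genes other than Bcl2a1d also had ratios below 1 after 24 h, all short of 2-fold. The log2 ratio was -0.65 for Mcl1 (-0.69 to -0.62), -0.48 for Bcl2l1 (-0.55 to -0.40), -0.42 for Bcl2a1b (-0.50 to -0.34) and -0.35 for Bcl2 (-0.58 to -0.12). Bak1 had a log2 ratio of -0.47 (-0.55 to -0.39), Bax of 0.10 (0.01 to 0.18) and Bcl2l11 of 0.04 (-0.05 to 0.14). Bcl2a1 summed over its copies stood at 105 CPM after 24 h against 155 CPM in untreated M-BMDM (0.68-fold, 0.64 to 0.72). With 1 library and no untreated culture labelled as 24 h, this difference has no replicate check and time and IL6 cannot be told apart. The 6 proliferation markers, Mki67 and Top2a among them, summed to 2469 CPM in the 24 h library, against 309 CPM in untreated M-BMDM and 308 CPM after 3 h, and all 6 were called higher than in untreated cells. Their part in the changes of Bmf, Bbc3 and Bcl2a1d was not tested.

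**Figure D5:**
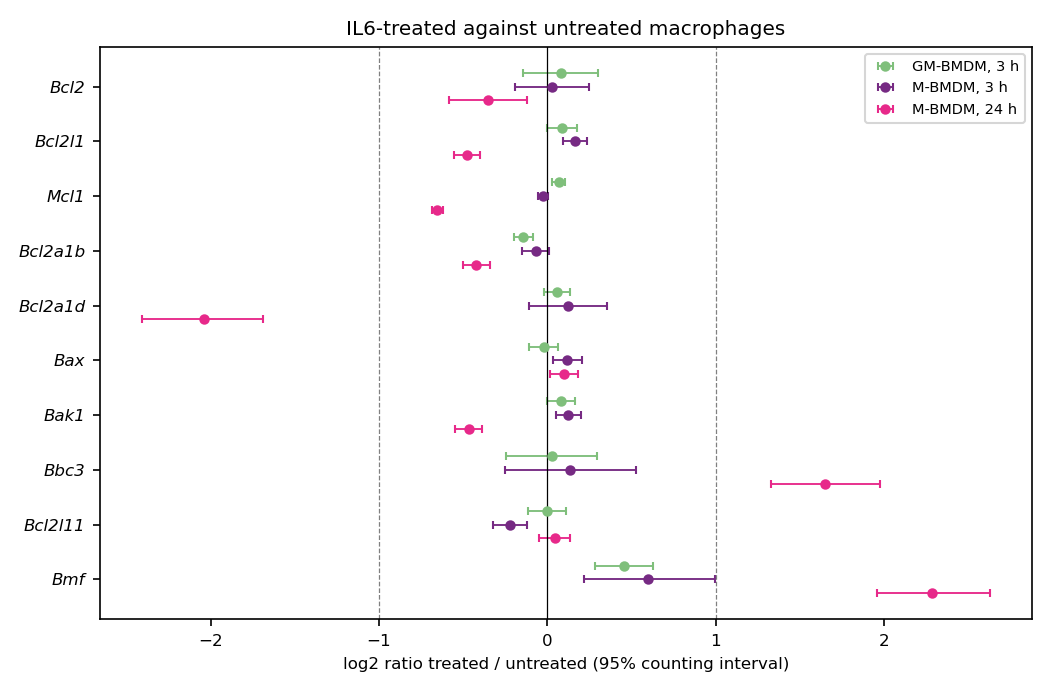
Log2 ratio of IL6-treated over untreated cells (horizontal axis) for GM-BMDM after 3 h, M-BMDM after 3 h and M-BMDM after 24 h; points are ratios of single libraries, bars exact 95% counting intervals, and dashed lines mark 2-fold. Only the 24 h points of Bcl2a1d (-2.04), Bbc3 (1.65) and Bmf (2.29) lie beyond the lines.

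Since growth factor and IL6 signals reach these genes through transcription factors, their promoters were searched for 3 known elements: a STAT element (TTCNNNGAA), the FOXO element TGTTTAC and the NF-kappaB consensus, on both strands, in windows from 250 bases before to 50 bases after each annotated start (RefSeq, GRCm38.p6). The 10 genes had 17 such windows. The STAT element was in 0 of them, beside 8.30% of all 32851 windows. The NF-kappaB consensus was in 3 of the 17 windows, 1 each of Bcl2l1, Bbc3 and Bmf, beside 8.46% of all windows. It was in none of the windows of the Bcl2a1 copies. The FOXO element, bound by factors that AKT keeps out of the nucleus, was in 2 of the 17 windows, 1 each of Bbc3 and Bcl2l11, beside 3.65% of all windows. These windows are printed as the BH3-only promoters that hold it, with the match in capitals, on the strand of the gene in Bbc3 and on the other strand in Bcl2l11.
Bbc3, chr7:16310011-16310310, plus strand: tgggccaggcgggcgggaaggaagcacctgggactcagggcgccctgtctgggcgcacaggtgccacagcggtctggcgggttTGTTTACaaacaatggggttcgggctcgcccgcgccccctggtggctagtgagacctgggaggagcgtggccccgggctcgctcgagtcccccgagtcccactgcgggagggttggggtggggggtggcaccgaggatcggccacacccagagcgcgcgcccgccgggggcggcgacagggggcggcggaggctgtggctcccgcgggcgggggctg
Bcl2l11, chr2:128125788-128126087, plus strand: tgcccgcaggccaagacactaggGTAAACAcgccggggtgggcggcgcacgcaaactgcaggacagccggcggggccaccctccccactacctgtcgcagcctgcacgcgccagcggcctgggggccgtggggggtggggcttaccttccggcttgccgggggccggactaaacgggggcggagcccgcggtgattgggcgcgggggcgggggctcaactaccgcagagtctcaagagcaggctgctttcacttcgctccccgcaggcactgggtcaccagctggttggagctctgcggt
Relative to the annotated start, the match begins at position -167 in Bbc3 and at position -227 in Bcl2l11. A match describes the letters and not binding. Bbc3 and Bcl2l11 moved differently here: Bbc3 was 3.13-fold higher after 24 h of IL6 and Bcl2l11 had a ratio of 1.03 (0.97 to 1.10).

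Of 16 further genes of the family, 11 passed the filter and 9 reached 5 CPM in a library. In the test over both pairs, 4 of the 11 rose in GM-CSF macrophages and 3 fell, beside 28.9% and 27.4% of all genes (56.3% in either direction), a share of the same order. Bcl2a1a rose with a log2 fold change of 4.04 ± 0.12 (SE, edgeR adjusted p = 1.38e-132). Pmaip1, which encodes the BH3-only protein NOXA that targets MCL1, had 43.5 and 43.8 CPM in the GM-CSF libraries without and after 3 h of IL6, against 14.2 and 11.4 CPM in the M-CSF libraries, and rose by 1.78 ± 0.11 (edgeR adjusted p = 5.17e-45). Bnip3l, a receptor for mitophagy, had 178 CPM in both GM-CSF libraries against 47.5 and 50.2 CPM and rose by 1.86 ± 0.09 (edgeR adjusted p = 2.00e-70). Its relative Bnip3 had 15.2 and 16.2 CPM against 43.6 and 44.0 CPM in the M-CSF libraries and fell by 1.48 (SE 0.11). Bid, the BH3-only protein that caspase-8 cleaves, had 37.2 and 36.4 CPM against 74.6 and 79.1 CPM and fell by 1.06 (SE 0.09). Bok, another pore former of the family, rose as well but stayed under 5 CPM, with 3.77 CPM in GM-BMDM against 0.107 CPM in M-BMDM. Bcl2l2, which encodes the pro-survival protein Bcl-w, fell by 0.37 (SE 0.10, edgeR adjusted p = 0.000693).

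After 24 h of IL6, 0 of these 11 genes was called higher than in untreated M-BMDM and 1 lower, beside 11.5% and 8.93% of all genes. The 1 called was Bcl2a1a, with a log2 ratio of -2.19 (-2.81 to -1.61). Pmaip1 had a log2 ratio of 0.68, Bad of 0.59, Bcl2l12 of 0.88, Bcl2l13 of 0.43, Bnip3l of 0.92, Bid of -0.15, Bcl2l2 of -0.51 and Bnip3 of -0.83. In marrow, Bnip3l was high at 282 CPM, a gene that red cell precursors use to clear mitochondria, and its log2 ratio to BM was -0.67 in GM-BMDM, short of 2-fold, and -2.57 in M-BMDM, where it was called lower. Bcl2l2 was higher than in BM, with a log2 ratio of 1.19 in GM-BMDM (1.00 to 1.38) and of 1.69 in M-BMDM (1.51 to 1.88).

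Of 15 apoptosome and caspase genes, 7 rose in GM-CSF macrophages and 1 fell in the test over both pairs. As 56.3% of all genes changed in this test (28.9% rose and 27.4% fell), the number of changed genes in the list was near the share over all genes. Among those that rose were Apaf1, the core of the apoptosome, the caspases Casp6, Casp8 and Casp9, and Aifm1, and the 1 that fell was Cycs, cytochrome c, by 0.51 on the log2 scale (SE 0.09). After 24 h of IL6, 2 of the 15 were called higher than in untreated M-BMDM and 1 lower, again near the 11.5% and 8.93% of all genes. Casp2 was among those called higher, at 52.8 against 20.5 CPM (2.58-fold higher), and Endog, a mitochondrial nuclease, was the 1 called lower, at 2.20 against 5.10 CPM. Of 9 caspase inhibitors and death receptor adaptors, 2 rose in GM-CSF macrophages (Birc5 and Ripk1) and 4 fell (Xiap, Birc3, Birc6 and Cflar), beside 28.9% and 27.4% of all genes. Cflar, the inhibitor of caspase-8, had 133 CPM in GM-BMDM, against 309 CPM in M-BMDM, a log2 ratio of -1.22. Cflar was also lower after 24 h, at 109 CPM (log2 ratio -1.50), as was Birc3, an inhibitor of death receptor signalling, at 38.4 CPM against 151 CPM (-1.98). Birc5, or survivin, which cells make as they divide, was higher after 24 h, at 109 CPM against 15.0 CPM (7.28-fold).

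The p53 pathway controls Bbc3 and Pmaip1. Of 16 of its genes, 10 rose in GM-CSF macrophages in the edgeR test and 4 fell (Trp53, Mdm2, Mdm4 and Aen), beside 28.9% and 27.4% of all genes, with a median log2 fold change of 0.63 beside 0.01 for all genes. Phlda3, an inhibitor of AKT, had 33.8 CPM in GM-BMDM against 2.58 CPM in M-BMDM, and Trp53inp1, which promotes p53-dependent death, had 51.5 against 9.83 CPM. After 24 h of IL6, 5 of the 16 were called higher and 2 lower than in untreated M-BMDM, beside 11.5% and 8.93% of all genes. Trp53inp1 had 53.8 against 9.83 CPM (5.48-fold), Phlda3 had 14.9 against 2.58 CPM (5.80-fold) and Sesn1, a stress-induced inhibitor of growth signalling, had 126 against 29.3 CPM (4.29-fold). The other two called higher were Ccng1, at 189 against 71.7 CPM, and Btg2, at 35.3 against 16.1 CPM, and those called lower were the death receptor Fas, at 4.32 against 18.4 CPM, and Gadd45a, at 10.5 against 21.6 CPM. Trp53 itself had 71.3 CPM in GM-BMDM, 93.5 CPM in M-BMDM and 83.5 CPM after 24 h, and Cdkn1a, another p53 target, had 292, 201 and 266 CPM in the same libraries. After 3 h of IL6, Mdm4, an inhibitor of p53, fell in the edgeR test by 0.34 on the log2 scale (SE 0.09, edgeR adjusted p = 0.0325). It was the only 1 of the 16 to pass. With 1 IL6 term for both times in the fit, no gene passed, so this call rests on the design.

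Among 11 FOXO and other regulators of BH3-only genes, 3 rose in GM-CSF macrophages (Foxo3, Foxo4 and Ddit3) and 5 fell (Jun, Mapk8, Mapk9, Dynll1 and Dynll2), beside 28.9% and 27.4% of all genes. The dynein light chains Dynll1 and Dynll2, which tether BIM and BMF, fell by 0.27 and 0.30 on the log2 scale (SE 0.09 each). Jun, whose kinase pathway acts on BIM and BMF, had 142 CPM in GM-BMDM, against 324 CPM in M-BMDM, and 138 CPM after 24 h of IL6. Foxo4 was called higher after 24 h, at 30.8 against 13.5 CPM, while Foxo3 had 79.4 against 44.8 CPM, short of 2-fold. Of the 12 genes of the STAT and PIM axis, 5 rose in GM-CSF macrophages (Stat5b, Cish, Socs2, Socs3 and Pim1) and 4 fell (Pim2, Pim3, Bcl6 and Myc), beside the same shares of all genes. Cish and Socs2, targets of STAT5, stood at 174 and 54.6 CPM in GM-BMDM, against 0.966 and 2.09 CPM in M-BMDM, and Bcl6, a repressor, at 9.15 CPM against 120 CPM. After 24 h, Socs3 had 7.60 CPM against 102 CPM in untreated M-BMDM and Myc had 15.9 against 113 CPM, and with Pim3 they were the 3 of 12 called lower, with 0 called higher, beside 8.93% of all genes lower and 11.5% higher. Of 6 measured genes that govern the turnover of MCL1 protein or related substrates, 1 rose in GM-CSF macrophages (Fbxw7, part of a ubiquitin ligase for MCL1) and 3 fell (Usp9x, a deubiquitinase of MCL1, Fbxo4 and Trib1), beside 28.9% and 27.4% of all genes. Trib1 was the 1 of these 6 called after 24 h, and it was lower, at 10.8 against 81.4 CPM.

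Each of the 8 members whose level spanned at least 1 log2 unit over the 6 libraries was matched with the genes of most similar profile among 10009, by the root mean square difference of centred log2 CPM. The profile most like that of Bcl2a1b was that of Sh3pxd2b, a scaffold of podosomes (0.13 log2 units), and that most like Bcl2a1d was that of Pkp2, a desmosomal protein (0.17), followed by the transcription factor Egr2 (0.22). Bmf was nearest to Pik3cd, a PI3-kinase catalytic subunit of leukocytes, at 0.24 units, the largest nearest distance among the 8 members. Bbc3 was nearest to Brip1os (0.07), Bcl2l11 to Asah2, a ceramidase (0.05), Bax to Plekho1 (0.05), Bak1 to Itm2b (0.05) and Mcl1 to Lcp1, the actin-bundling plastin of leukocytes (0.04). These distances describe 6 libraries that each enter all profiles.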

How the data were processed

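The deposited table held expected counts per gene for 6 libraries, 1 per group; 24.7% to 27.7% of values above 0 in each were not whole numbers. HISAT2, StringTie and DESeq2, all without a version, and the GRCm38 build are listed in the submitters' processing notes; the sources used here do not give their order, settings or use of strand. Of 56278 rows, 742 had no gene name, held 0.240% to 0.522% of the counts and were left out. Rounding to whole numbers came before all other steps. The 14719 genes with at least 1 CPM in a library were analysed. Library totals ran from 18511800 to 24134400 counts, scaled by TMM (edgeR 4.0.16, R 4.3.3).

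Pairs of libraries were compared by the ratio of scaled counts with exact 95% Clopper-Pearson intervals from the conditional binomial distribution, with no p-value. Intervals cover counting error only, because each group has 1 library. As amplified reads are not independent molecules, even that error may be larger than the intervals show. Growth factor and 3 h of IL6 were tested with edgeR's quasi-likelihood method in 1 additive fit of 6 libraries (1 residual degree of freedom), with Benjamini-Hochberg adjustment over 14719 genes at 0.05; contrasts with the lone BM and 24 h libraries were not tested. The steps were tested on simulated data. Alternatives were other scalings, filters, thresholds and designs, DESeq2 1.42.0, limma-voom (limma 3.58.1), summed Bcl2a1 copies and other lengths.

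Members and gene lists were chosen with earlier results of these data known. All 10 members were named in every comparison, further family members when they reached 5 CPM, and up to 3 called genes with at least 10 CPM per other list and comparison; other names were chosen after their values were seen, as were the genes listed beside short counts of a list; some genes within these counts are not reported here. Positions and coding sequences are from GENCODE M21 (GRCm38), promoters from RefSeq (GRCm38.p6). Overlapping genes had few counts: at most 51.85 for Gm29094 on the strand of Bcl2a1b and 52.94 for Ggnbp1 opposite Bak1.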

Additional observations from a re-analysis of the deposited data

Results flagged for a closer look

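Mcl1 and Bax had log2 ratios of opposite sign in the macrophage types after 3 h of IL6. For Mcl1 the ratio was 0.07 in GM-BMDM (95% counting interval 0.03 to 0.11) and -0.03 in M-BMDM (-0.06 to 0.01), a difference of 0.093. For Bax it was -0.02 in GM-BMDM (-0.11 to 0.07) and 0.12 in M-BMDM (0.03 to 0.20), a difference of -0.14. Each value rests on 1 treated and 1 untreated library, and the difference between the types was not tested.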

How the results depend on the processing

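Of 74 alternative counts and summary shares, 62 stayed within the limits set for them and 12 moved. In GM-BMDM against M-BMDM, 4 members were called and 2 with total counts (20.1% of all genes). After 3 h of IL6, 2 were called in that comparison, 4 with upper-quartile factors (19.1% of all genes) and 5 at 1.5-fold (36.4%). At 1.5-fold, 1 member was called in M-BMDM after 3 h against untreated cells in place of 0 (1.67% of all genes), and 6 after 24 h against 3 h in place of 3 (38.9%). In the edgeR test of growth factor, 8 members passed and 0 with 1 IL6 term for both times (4.42% of all genes). In the test of 3 h of IL6, 1 passed and 0 with DESeq2 (3 of all genes), with limma-voom (97), with total counts in edgeR (81) or with 1 IL6 term (0). The median share of Mcl1 over the libraries was 50.4%, 47.3% with the longest transcript as length and 69.7% without length correction. Of 160 fold changes of members in the alternatives, 146 stayed on their side of the threshold and 14 lost the call. Of 336 ratios of members under other scalings or with Bcl2a1 copies summed, 59 left the counting interval of the ratio as reported, and 53 of 60 shares of a single transcript moved with the length used. No called value of a member changed sign. Total counts shifted log2 ratios by up to 0.33, and upper-quartile factors by up to 0.09.

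No paired analysis was possible because the labels carry no replicate numbers and each group has 1 library; the pairs of the growth factor and 3 h tests share a treatment or a cell type, not a replicate. Bbc3, with 100 to 405 counts per library, and Bmf, with 88 to 695, are the members limited most by depth outside the Bcl2a1 copies. Differences between single libraries have no replicate check.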
